A study of Mus musculus with 3 samples.

Results

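Isg15, Ifit1, Ifit2, Ifit3, Irf7, Oasl2, Bst2 and Ifitm3 are 8 interferon stimulated genes, and they were followed through the cells of the mouse small intestine. The 8 genes were taken by name from a table of 13891 genes and 12653 cells, and all 8 had a row. Small intestinal cells came from male ICR mice, an outbred strain, which were 3 weeks old at injection. AOS 0 mice received vehicle, B + A 0 mice received busulfan at 40 mg/kg and vehicle, and B + A 10 mice received busulfan at 40 mg/kg and alginate oligosaccharides (AOS) at 10 mg/kg, with daily gavage for 2 weeks in each group. Busulfan is an alkylating anticancer drug that injures dividing cells, and AOS are short sugar chains cut from the alginate of brown algae. The cells of 6 mice were pooled for each group and gave 1 library on 1 lane of the 10x Genomics 3′ v2 system. Groups are therefore single libraries of pooled outbred animals, so treatment, lane and pool cannot be told apart, and no difference between groups could be tested. Intervals in parentheses are 95% intervals for counting error and do not hold any variation among animals or lanes. Values of 3 libraries are given in the order AOS 0 first, B + A 0 second and B + A 10 last. The labels conflict for both busulfan libraries: the source name is AOS10_Intestine for the B + A 0 library and B+A0_Intestine for the B + A 10 library. Groups follow the title and treatment field, and by the source names every comparison below would mean something else.

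The libraries held 4106 cells (AOS 0), 3195 cells (B + A 0) and 5352 cells (B + A 10), with a median of 7371, 6407 and 3505 unique molecular identifiers (UMIs) per cell. A UMI stands for 1 captured RNA molecule, so that levels of different genes were compared without a term for length. Pairs of libraries shared between 17 and 34 cell barcodes, at most 0.970% of a library. Clusters were made without the 8 genes and without the other interferon genes, and were named from markers as stem-like, cycling, early, mature and ileal enterocyte-like, goblet-like, Paneth-like and T cell-like cells. The names are shortened below, and they describe markers rather than sorted cells. The few tuft-like and enteroendocrine-like cells and an unnamed cluster of 89 cells were set apart, and their levels are given at the end. Statements across classes leave them out and cover the 8 classes. Markers of B and plasma cells, myeloid cells and stromal cells stood near 0 in these classes, at no more than 1.22 summed UMIs per 10000. A level is the number of UMIs of a gene among all UMIs of a class in a library, per 10000 UMIs. Levels are therefore shares, and abundant RNA of some genes lowers the levels of the others in that class. Defensins are such genes among those that lead the Paneth cluster, and their part in the low Paneth levels was not tested.

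Interferons are secreted when a cell senses viral or bacterial nucleic acid, and their receptors signal through JAK kinases and STAT proteins. The signal ends at a short DNA element in front of interferon stimulated genes, whose products restrict viruses at many steps. In the gut, absorptive cells respond mainly to type III interferon, and a low tonic expression is kept up by the microbiota. Irf7 is the transcription factor that amplifies the response, Isg15 is a ubiquitin-like modifier, Ifit1, Ifit2 and Ifit3 bind foreign RNA or each other, Oasl2 belongs to the 2′-5′ oligoadenylate synthetase-like proteins, Bst2 (tetherin) holds budding virions at the cell surface, and Ifitm3 blocks the fusion of viruses with endosomal membranes.

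Promoter windows were searched because 6 of the 8 genes followed one another across cell classes and 2 did not. The motif was GAAA, 2 bases of any kind and GAAA on either strand, the core of the interferon stimulated response element, and overlapping matches were counted. It was found in 3.44% of 32851 RefSeq promoter windows of GRCm38.p6, each covering 250 bases before to 50 bases after a start, and in a window of 3.99% of 27025 genes. Of the 8 genes 5 held it, and so did 25 of 49 other antiviral genes that interferon induces. Isg15 had 3 overlapping matches between -78 and -57 relative to its start. Ifit1 had matches from -104 to -95 and from -85 to -76, Ifit3 from -156 to -147 and from -122 to -113, and Bst2 from -130 to -121 and from -124 to -115. In Ifitm3 the matches lay after the start, from 3 to 12 and from 20 to 29. These letters were not found in the windows of Ifit2, Irf7 and Oasl2. The stretches below run from -170 to -51 (Ifitm3 from 3 to 29), 5′ to 3′ on the strand of the gene, with the matches in capitals. A match describes the letters and is not evidence of binding.
Isg15, chr4:156200869-156200988, minus strand: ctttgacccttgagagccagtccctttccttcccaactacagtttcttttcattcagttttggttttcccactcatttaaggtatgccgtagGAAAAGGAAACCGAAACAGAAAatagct
Ifit1, chr19:34640719-34640838, plus strand: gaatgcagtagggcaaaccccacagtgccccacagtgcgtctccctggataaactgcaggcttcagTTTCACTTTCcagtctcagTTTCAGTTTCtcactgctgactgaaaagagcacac
Ifit3, chr19:34583359-34583478, plus strand: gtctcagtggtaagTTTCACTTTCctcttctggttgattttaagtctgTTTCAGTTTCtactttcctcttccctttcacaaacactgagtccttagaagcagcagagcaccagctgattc
Bst2, chr8:71537523-71537642, minus strand: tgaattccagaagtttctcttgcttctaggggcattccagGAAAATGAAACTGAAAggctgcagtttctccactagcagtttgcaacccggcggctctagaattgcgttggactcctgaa
Ifitm3, chr7:141010716-141010742, minus strand: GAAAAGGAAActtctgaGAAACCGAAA

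The genes lie on 5 chromosomes of GRCm38. Ifit2 (chr19:34550694-34576419), Ifit3 (chr19:34583531-34588731) and Ifit1 (chr19:34640871-34650009) are neighbours on chromosome 19. Ifitm3 (chr7:141009586-141010770) and Irf7 (chr7:141262706-141266481) both lie on chromosome 7, Isg15 (chr4:156199424-156200818) on chromosome 4, Oasl2 (chr5:114896936-114912234) on chromosome 5, and Bst2 (chr8:71534255-71537456) on chromosome 8.

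Across the 8 cell classes, 6 of the 8 genes had their highest level in mature enterocytes and a low level in stem cells, while Ifitm3 ran the other way and Bst2 was nearly even outside Paneth cells. Mature enterocytes are the absorptive cells of the upper villus, and stem cells sit at the base of the crypt. Among all 10805 genes with at least 100 UMIs, 41.5% were higher in mature enterocytes than in stem cells and 21.5% had their highest level in mature enterocytes. Of the 123 other interferon genes with as many UMIs, taken from lists of 157 genes, 80.5% and 52.8% did. Of the 8 genes, 7 were higher in mature enterocytes than in stem cells and 6 were highest there. Classes are clusters of the same cells, so their order is a description and was not tested.

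Irf7, the regulator, stood at 5.16, 4.41 and 4.81 UMIs per 10000 in mature enterocytes of the 3 libraries. In stem cells it stood at 1.252, 1.15 and 1.26. Mature enterocytes exceeded stem cells 3.92-fold on the means of the 3 libraries, the flattest slope of the 6 genes. Ileal enterocytes (3.33 to 3.998) and early enterocytes (3.15 to 3.49) overlapped each other, and goblet cells (2.39 to 2.79) were above stem cells in every library.

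Isg15 had the highest level of the 6 genes. It reached 16.2, 9.23 and 13.2 UMIs per 10000 in mature enterocytes of the 3 libraries, against 2.56, 1.81 and 2.47 in stem cells. Mature enterocytes stood above the other 7 classes in all 3 libraries, 5.65-fold above stem cells on the means. Early enterocytes had 9.06, 6.54 and 8.02, ileal enterocytes 7.10, 6.93 and 4.55, and goblet cells 4.21, 3.43 and 4.88. The ranges of early and ileal enterocytes overlapped, and so did those of ileal enterocytes and T cells (5.10 to 7.03). Paneth cells were lowest, at 0.776, 0.849 and 0.936.

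Ifit1 had the steepest slope. Its level was 9.62, 6.29 and 10.2 UMIs per 10000 in mature enterocytes and 0.426, 0.474 and 0.696 in stem cells, 16.4-fold apart on the means. Early enterocytes came next, with 4.01, 3.86 and 5.44, and did not overlap mature or ileal enterocytes (2.97 to 3.46). The ranges of stem, cycling and Paneth cells overlapped across libraries, though within each library Paneth cells were lowest, at 0.216, 0.342 and 0.492. Stem and cycling cells could not be put in order.

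Ifit3 and Ifit2 were the scarcest, with 3437 and 2208 UMIs in all libraries. Ifit3 stood at 1.59, 0.778 and 1.40 UMIs per 10000 in mature enterocytes of the 3 libraries and at 0.165, 0.0756 and 0.138 in stem cells. Ifit2 stood at 1.07, 0.428 and 0.577 in mature enterocytes, and the ranges of all neighbouring classes overlapped. In B + A 0 the level of Ifit2 was higher in ileal enterocytes (0.685) than in mature enterocytes, the reverse of AOS 0, where ileal enterocytes had 0.564. The Ifit genes have close copies (Ifit3b beside Ifit3, and Ifit1bl1 and Ifit1bl2 beside Ifit1), and the split of reads between copies is uncertain.

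Oasl2 stood at 4.18, 2.92 and 3.63 UMIs per 10000 in mature enterocytes and at 0.772, 0.570 and 0.774 in stem cells. The difference of the means was 5.07-fold, and mature enterocytes overlapped none of the other 7 classes. Early enterocytes (1.81 to 2.26), ileal enterocytes (1.64 to 2.004), T cells (1.31 to 1.73) and goblet cells (1.22 to 1.51) each overlapped the next.

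Bst2 differed little between most of the 8 classes. Its means ran from 4.10 UMIs per 10000 in early enterocytes to 2.88 in ileal enterocytes, with overlapping ranges at every step between. Mature enterocytes (4.33, 3.91 and 3.33) were 1.18-fold above stem cells (3.61, 3.26 and 2.95). Of the 8 classes Paneth cells alone, at 0.714 to 0.814, did not overlap the next. Ftl1 was lowest in Paneth cells as well, with a mean of 4.85 against 15.3 to 18.9 in the other classes. Tuft-like cells, outside the 8, stood at 7.63, 8.61 and 4.55 from 40, 28 and 17 UMIs.

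Ifitm3 was a crypt gene here. It stood at 34.9, 35.7 and 34.4 UMIs per 10000 in stem cells, at 23.2, 22.9 and 23.8 in cycling cells and at 3.496, 2.92 and 3.04 in mature enterocytes. Stem cells were 11.1-fold above mature enterocytes on the means, and stem and cycling cells overlapped no other class. Ileal enterocytes were lowest, at 2.05 to 2.23. Its relative Ifitm2 followed the same order, with 9.22, 9.30 and 9.11 in stem cells and 0.299, 0.566 and 0.499 in mature enterocytes. Reads of the Ifitm genes could also be split between close copies.

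**Figure D1:**
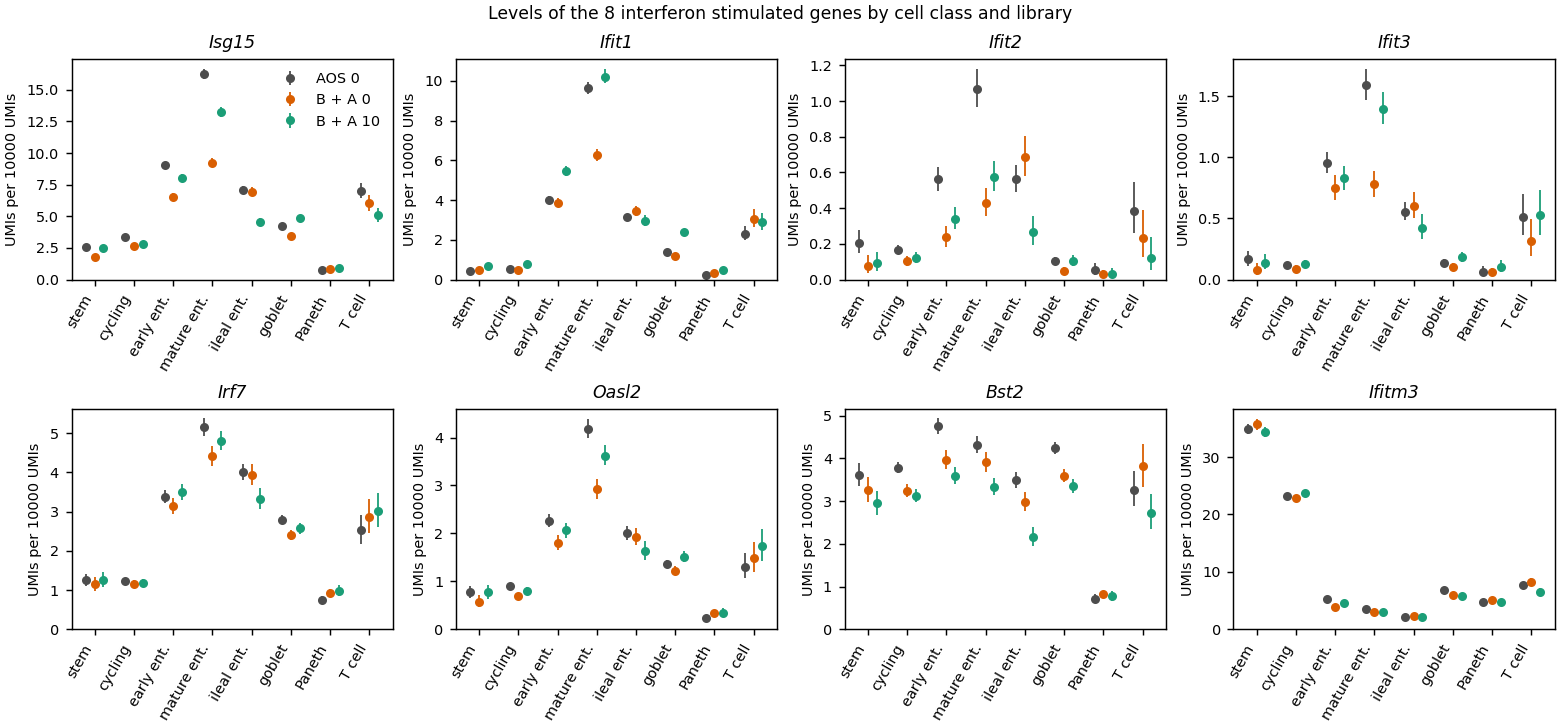
Level of each of the 8 genes, in UMIs per 10000 UMIs, in 8 cell classes (ent., enterocyte) of the 3 libraries, with each panel on its own linear axis and bars for the 95% counting interval. Isg15, Ifit1, Ifit2, Ifit3, Irf7 and Oasl2 peak in mature enterocytes, Ifitm3 peaks in stem cells at 34.4 to 35.7, and Bst2 is nearly even outside Paneth cells among these 8 classes.

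RNA carried between droplets may bear on the low levels, and it was not measured directly. The summed level of 31 mature enterocyte markers in stem cells was 2.83%, 4.72% and 5.09% of that in mature enterocytes of the 3 libraries, and in Paneth cells it was 2.10%, 7.11% and 5.66%. Isg15 in stem cells, at 15.8%, 19.7% and 18.7% of its mature enterocyte level, lay well above those shares. Ifit1 in stem cells, at 4.43%, 7.54% and 6.81%, lay little above them. In Paneth cells Ifit1 was at 2.24%, 5.44% and 4.82%, close to the markers in AOS 0 and below them after busulfan. Ifitm3 in mature enterocytes was at 10.0%, 8.19% and 8.85% of its stem cell level, while the stem markers were at 1.95%, 2.64% and 3.10%. T cell markers also differed between libraries, at a summed 1.86, 6.76 and 9.15 UMIs per 10000 in mature enterocytes and 1.49, 5.70 and 8.05 in stem cells. The part of carried RNA in the low levels was not tested.

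The T cell class held several kinds of cells. At a finer resolution, a cluster of 189 cells had T cell markers at 398 and mature enterocyte markers at 67.1 summed UMIs per 10000, with Isg15 at 3.39 and Ifitm3 at 12.7. Another of 136 cells had T cell markers at 144 and mature enterocyte markers at 578, with Isg15 at 10.9 and Ifitm3 at 2.88. The third, of 65 cells, had T cell markers at 162 and mature enterocyte markers at 75.7, with Isg15 at 4.38 and Ifitm3 at 3.10. Isg15 was highest in the cluster with most enterocyte RNA, whose part was not tested, while Ifitm3 differed between the clusters with little of it. The T cell class is thus mixed, and its differences between libraries enter below mostly in counts and ranges over classes.

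To compare libraries with unlike cell numbers, each class received the same weight in every library, which gives a standardised level. The first comparison asks what busulfan changed. B + A 0 had lower standardised levels than AOS 0 for all 8 genes. Of these, 2 genes passed 1.5-fold, Ifit2 and Ifit3, both lower. Among 10432 genes with at least 100 UMIs in both libraries together, 1.71% were at least 1.5-fold lower and 1.24% at least 1.5-fold higher. The median ratio was 0.952, so most genes were lower in B + A 0 to some degree. All 8 genes passed that minimum in this and in each later comparison.

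Isg15 stood at a standardised 7.13 UMIs per 10000 in AOS 0 and 5.03 in B + A 0, a ratio of 0.705 (0.688 to 0.722). Ifit2 stood at 0.422 and 0.223, a ratio of 0.528 (0.473 to 0.591), and Ifit3 at 0.579 and 0.377, a ratio of 0.651 (0.595 to 0.712). Ifit1, at 3.23 and 2.58, and Oasl2, at 1.90 and 1.52, both came to about 0.80, with ratios of 0.799 (0.770 to 0.828) and 0.797 (0.761 to 0.834). Irf7, Bst2 and Ifitm3 stayed nearer to 1, at 0.910, 0.874 and 0.959, and Ifitm3 was level with the median of all genes.

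In mature enterocytes the difference was wider than by standardised level for all genes but Bst2. There 4 of the 8 genes passed 1.5-fold, all lower in B + A 0. Isg15 had a ratio of 0.569 (0.543 to 0.596), Ifit1 of 0.653 (0.617 to 0.692), Ifit2 of 0.401 (0.323 to 0.494) and Ifit3 of 0.490 (0.417 to 0.574). Ifit2 was also at least 1.5-fold lower in every other class but ileal enterocytes, at 0.368 (stem cells) to 0.616 (cycling cells). Ifit3 was so in stem cells (0.457) and T cells (0.615). In stem cells of B + A 0 each rested on 11 UMIs. The share of all genes past 1.5-fold was not taken in those classes. In mature enterocytes 2.67% of 5384 genes were that much lower and 2.02% that much higher, with a median ratio of 0.982. Oasl2 (0.699), Irf7 (0.855), Bst2 (0.904) and Ifitm3 (0.836) were lower by less. The 31 mature enterocyte markers moved the same way and less far, from a summed 1258 UMIs per 10000 in AOS 0 to 1111 in B + A 0, and their part in the result was not tested.

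Ileal enterocytes did not share this. There Isg15 had 7.10 in AOS 0 and 6.93 in B + A 0, a ratio of 0.975 (0.916 to 1.04), and Ifit1 had a ratio of 1.10 (1.01 to 1.21). Ifit2 and Ifit3 had ratios of 1.21 (0.981 to 1.4998) and 1.09 (0.869 to 1.35). None of the 8 genes passed 1.5-fold, against 2.67% lower and 1.82% higher among 5167 genes. Of the 7 genes other than Ifitm3, 7 of 7 were lower in B + A 0 in cycling cells, early enterocytes, mature enterocytes and goblet cells, 6 of 7 in stem cells, 4 of 7 in ileal enterocytes, 3 of 7 in T cells and 2 of 7 in Paneth cells. Of all genes that reached 100 UMIs there, 65.0% were lower in cycling cells, 61.03% in early enterocytes, 54.9% in mature enterocytes, 68.9% in goblet cells, 61.4% in stem cells, 60.8% in ileal enterocytes, 64.4% in T cells and 21.4% in Paneth cells. In Paneth cells, where most genes were higher in B + A 0, Ifit1 had a ratio of 1.59 (1.15 to 2.22) and Oasl2 of 1.53 (1.12 to 2.12).

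The second comparison asks what AOS changed in mice that had received busulfan. It shares the B + A 0 library with the first, so a value particular to that library enters both. By standardised levels no gene of the 8 reached 1.5-fold in B + A 10 over B + A 0. Ifit1 came closest, at 3.87 against 2.58 and a ratio of 1.499 (1.45 to 1.56), just under the line. Ifit3 had 1.39 (1.27 to 1.54), Isg15 1.23 (1.19 to 1.26), Oasl2 1.17 (1.11 to 1.23) and Ifit2 1.09 (0.960 to 1.245). Irf7 was at 1.05, Ifitm3 at 1.00 and Bst2 at 0.887 (0.858 to 0.917). Over 10130 genes 1.07% were 1.5-fold higher and 0.879% lower, with a median of 0.993.

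In mature enterocytes Ifit1 and Ifit3 passed 1.5-fold and were higher in B + A 10, with ratios of 1.63 (1.53 to 1.72) and 1.80 (1.52 to 2.13). Over 5148 genes 2.31% were that much higher and 1.42% lower. Isg15 (1.43, 1.36 to 1.51), Ifit2 (1.35, 1.06 to 1.72) and Oasl2 (1.24, 1.13 to 1.36) were higher by less. The mature enterocyte markers did not move with this: they summed to 1092 in B + A 10 and 1111 in B + A 0.

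Ifit1 in goblet cells, the mucus-secreting cells, was higher in B + A 10 than in both other libraries. Its level was 1.38, 1.17 and 2.39 UMIs per 10000 in the 3 libraries, and B + A 10 exceeded B + A 0 by 2.05-fold (1.86 to 2.26) and AOS 0 by 1.73-fold (1.59 to 1.88). This was not particular to goblet cells. Ifit1 was also highest in B + A 10 in stem, cycling and Paneth cells and in early and mature enterocytes. Its ratio of B + A 10 over AOS 0 was above 1 in 7 of 8 classes, all but ileal enterocytes (0.946). That ratio was 1.63 in stem cells, from 106 and 85 UMIs, and 2.28 in Paneth cells, from 100 and 52 UMIs. Ifit2 and Ifit3 in goblet cells also passed 1.5-fold for B + A 10 over B + A 0. Their ratios were 2.15 (1.32 to 3.55), from 49 and 28 UMIs, and 1.70 (1.21 to 2.40), from 86 and 62 UMIs. Isg15 in goblet cells had a ratio of 1.42 (1.34 to 1.51) for the same libraries. The share of all genes past 1.5-fold was not taken in goblet, stem or Paneth cells. Mature enterocyte markers in goblet cells were at 5.47%, 7.66% and 9.51% of their mature enterocyte level while Ifit1 there was at 14.4%, 18.6% and 23.4%, and the part of carried RNA was not tested.

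Ileal enterocytes again differed, and here every one of the 8 genes was lower in B + A 10 than in B + A 0. Isg15 stood at 6.93 and 4.55, a ratio of 0.656 (0.601 to 0.716), and Ifit2 at 0.685 and 0.267, a ratio of 0.390 (0.274 to 0.546). Both passed 1.5-fold, where 1.29% of 4022 genes were that much lower and 2.59% higher, with a median of 1.03. Ifit3 had a ratio of 0.702 (0.521 to 0.940), Bst2 of 0.724 (0.636 to 0.823), Irf7 of 0.843 (0.757 to 0.937), Oasl2 of 0.851 (0.730 to 0.992) and Ifit1 of 0.856 (0.764 to 0.959). In cells thinned to 1000 UMIs Ifit3 turned to 1.42 and Ifitm3 to 1.07, and Ifitm3 also turned to 1.06 where each cell was assigned by its own marker scores. The 11 ileal markers stood at a summed 428 UMIs per 10000 in B + A 0 and 478 in B + A 10, and their part in the result was not tested. Of the 7 genes other than Ifitm3, 0 of 7 were higher in B + A 10 in ileal enterocytes, and 6 of 7 were higher in each of stem cells, cycling cells, early enterocytes, mature enterocytes and goblet cells, where Bst2 was the exception. In T cells 3 of 7 and in Paneth cells 4 of 7 were higher. Of all genes 56.9% were higher in ileal enterocytes, 55.0% in mature enterocytes, 51.4% in early enterocytes, 46.0% in cycling cells, 44.1% in stem cells, 41.9% in goblet cells, 54.7% in T cells and 26.95% in Paneth cells.

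Bst2 did not follow the others between libraries. It was lower in B + A 10 than in B + A 0 in 8 of 8 classes, with ratios of 0.715 to 0.963, and its standardised level was 3.97, 3.46 and 3.07 UMIs per 10000 in the 3 libraries. Ifitm3 moved least, with standardised levels of 10.7, 10.3 and 10.3.

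The third comparison sets B + A 10 beside AOS 0, and it shares a library with each of the others. By standardised levels Ifit2 alone passed 1.5-fold, at 0.244 against 0.422 and a ratio of 0.578 (0.519 to 0.643). Over 10413 genes 3.11% were that much lower and 2.61% higher, with a median of 0.943. Ifit1 was above AOS 0, with a ratio of 1.20 (1.16 to 1.24), while Isg15 (0.865, 0.845 to 0.884) and Bst2 (0.775, 0.752 to 0.799) were below it. Ifit3, Irf7, Oasl2 and Ifitm3 had ratios between 0.907 and 0.960.

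In mature enterocytes Ifit2 passed 1.5-fold as well, with a ratio of 0.540 (0.452 to 0.644), beside 2.75% of 5605 genes lower and 3.85% higher. In ileal enterocytes Isg15 (0.640, 0.590 to 0.693), Ifit2 (0.474, 0.337 to 0.654) and Bst2 (0.621, 0.552 to 0.697) were at least 1.5-fold lower, beside 4.12% of 4972 genes lower and 4.67% higher.

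**Figure D2:**
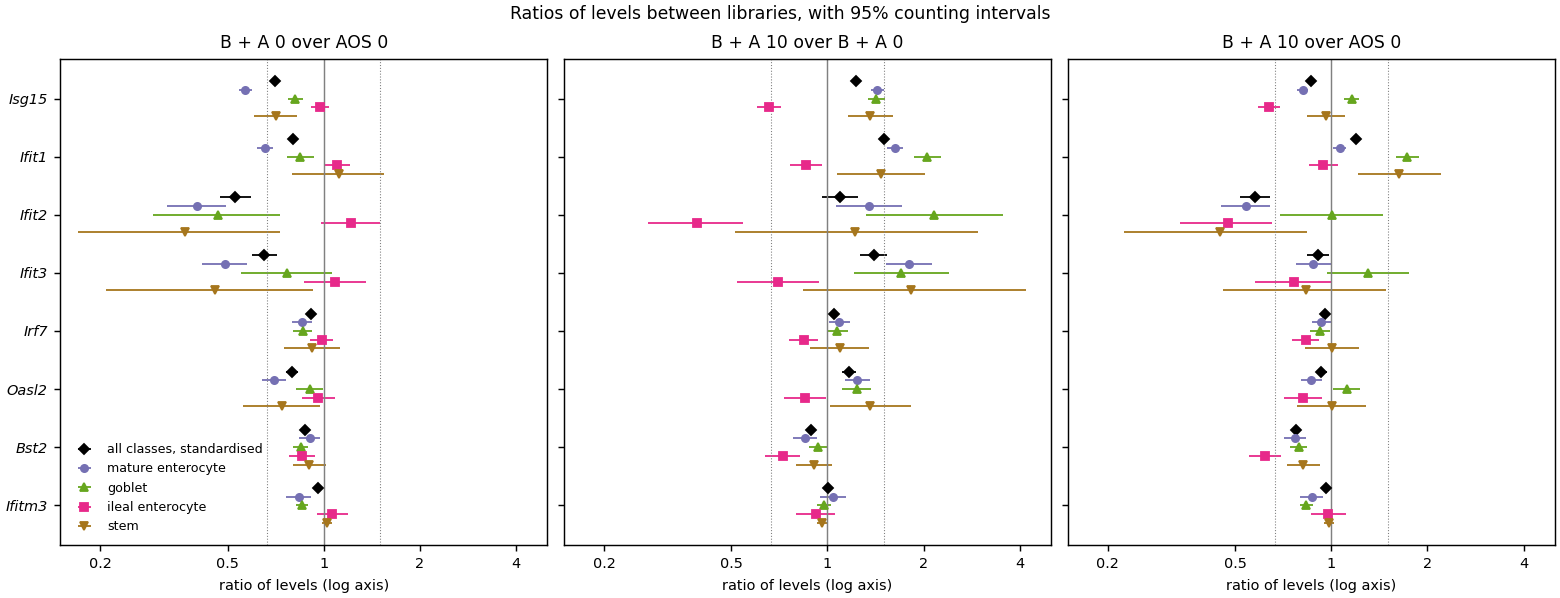
Ratios of levels between libraries for the 8 genes on a log axis, for standardised levels (black) and for 4 classes. Standardised levels weight each class by its share of all cells, the same in every library. Bars show the 95% counting interval and dotted lines 1.5-fold. In the middle panel the ileal enterocyte ratios (squares) lie below 1 and the mature enterocyte ratios (circles) lie above 1 for 7 of the 8 genes, all but Bst2.

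The mature enterocyte class was made of 3 clusters, led by Fabp1 and Rbp2, by Slc5a12 and Dnase1, and by S100g and Slc40a1. Isg15 stood at 15.9, 10.4 and 12.9 UMIs per 10000 in the first cluster of the 3 libraries, at 17.0, 8.04 and 13.4 in the second and at 15.7, 8.47 and 13.7 in the third. B + A 0 was thus lowest in each of the 3 clusters. B + A 0 was lowest for Ifit1 too (8.38, 6.57 and 9.16 in the first, 12.1, 5.69 and 11.5 in the second, 8.27, 6.75 and 10.8 in the third). The 2 ileal clusters, led by Fabp6 and Ddah1 and by Tmigd1 and Slc10a2, had Isg15 at 6.02, 5.58 and 4.09 and at 8.84, 8.90 and 5.21, with B + A 10 lowest in both. The first, of 615 cells, also had the early enterocyte markers Gsdmc2 and Gsdmc4 among its leading genes. Its mature enterocyte markers summed to 69.4 UMIs per 10000, against 373 in the second and 867 to 1568 in the mature clusters. The part of maturity in the contrast of mature and ileal enterocytes was not tested.

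**Figure D3:**
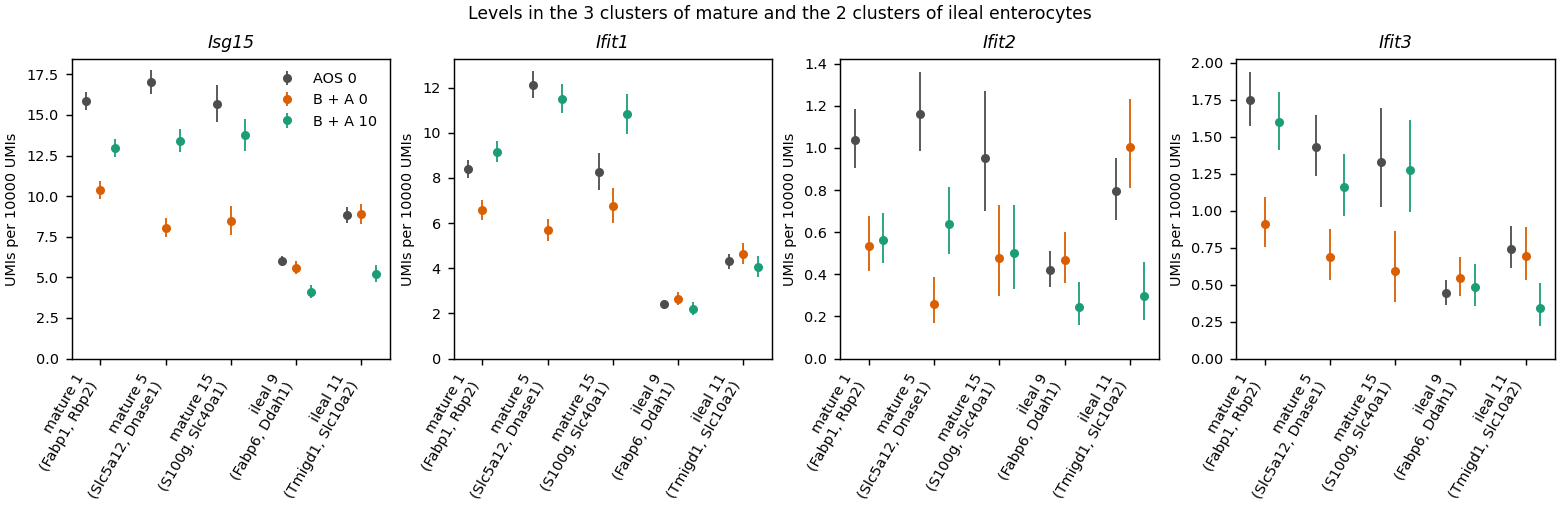
Levels of Isg15, Ifit1, Ifit2 and Ifit3, in UMIs per 10000 UMIs, in 3 clusters of mature and 2 clusters of ileal enterocytes (leading genes in brackets) by library, with bars for the 95% counting interval. B + A 0 is lowest for Isg15 in each mature cluster, and B + A 10 is lowest for Isg15 in both ileal clusters, at 4.09 and 5.21.

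A small group within the mature enterocytes had the highest levels of Isg15 and the Ifit genes of the mature clusters. At the finer resolution, 78 cells led by Clca4a and Ada, a purine enzyme of the villus tip, had Isg15 at 27.3 and Ifit1 at 15.9 UMIs per 10000. Its Irf7 (5.04) and Oasl2 (3.66) lay within the range of the other mature clusters, and its Bst2 (2.21) and Ifitm3 (1.11) below it. By library the group had Isg15 at 31.3, 13.4 and 25.9 and Ifit1 at 17.5, 4.93 and 19.1. In B + A 0 the Ifit genes were not highest in it. Its Ifit1 there lay within the range of the other mature clusters (2.70 to 6.87), and Ifit2 and Ifit3 had 0 and 1 UMIs. The group made up 5.66%, 1.95% and 2.53% of mature enterocytes in the 3 libraries, or 40, 10 and 28 cells. This group was noticed after the values were seen. Without it the ratios of B + A 0 over AOS 0 in mature enterocytes were 0.591 for Isg15, 0.683 for Ifit1, 0.415 for Ifit2 and 0.508 for Ifit3, so that Ifit1 no longer passed 1.5-fold and 3 genes did.

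Cells were thinned to 1000 UMIs each, so that shares of cells could be compared at 1 depth. In mature enterocytes 70.6%, 55.4% and 61.2% of cells of the 3 libraries had a UMI of Isg15, against 17.1%, 13.7% and 22.1% of stem cells. A UMI of Ifitm3 was found in 94.1%, 94.98% and 95.8% of stem cells and in 23.9%, 21.6% and 22.2% of mature enterocytes. UMIs of at least 2 of the 7 genes other than Ifitm3 were found in 76.5%, 63.2% and 72.0% of mature enterocytes. The share was lowest in B + A 0 by the counting intervals (58.9% to 67.4%, against 73.2% to 79.6% in AOS 0). It was 57.7%, 46.5% and 55.8% in early enterocytes, 47.4%, 46.5% and 38.5% in ileal enterocytes and 33.7%, 26.9% and 35.7% in goblet cells.

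Thinning keeps the proportions of RNA within a cell, so abundant defensin RNA bears on these shares as it does on levels. Paneth cells, the class with the lowest levels of the 7 genes, had 5.05%, 3.51% and 5.03%. They are no clean background: Ifit1 there was near the share of the mature enterocyte markers, but Irf7 was at 14.4%, 21.2% and 20.3% and Bst2 at 16.5%, 20.8% and 23.0% of the mature enterocyte level. Before thinning, 99.6%, 99.4% and 97.5% of mature enterocytes and 80.8%, 95.9% and 78.0% of Paneth cells had at least 2 of the 7, at median depths of 5088, 4905.5 and 2632 UMIs in mature enterocytes and 25145, 24052 and 10451 UMIs in Paneth cells. The unthinned shares therefore say little across classes.

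**Figure D4:**
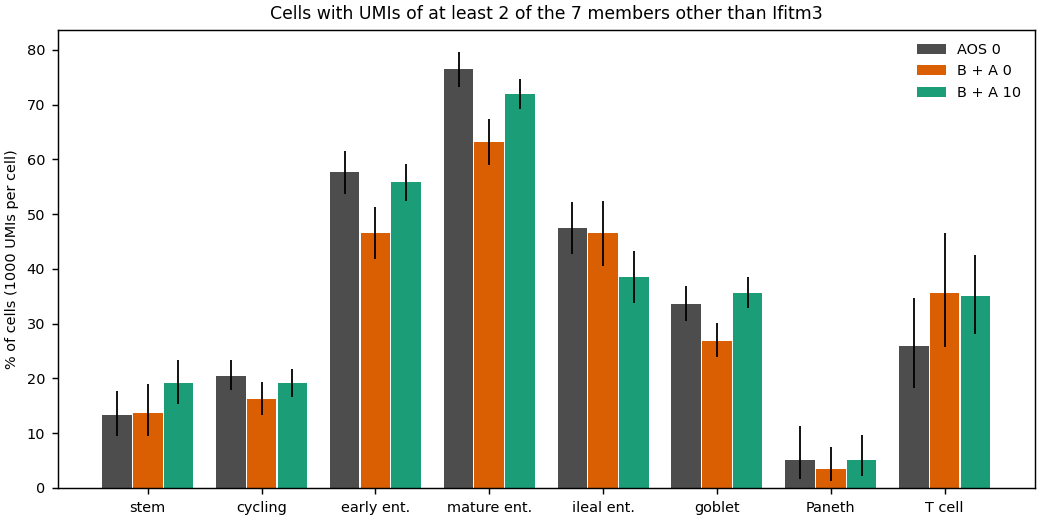
Percentage of cells with UMIs of at least 2 of the 7 genes other than Ifitm3, after each cell was thinned to 1000 UMIs, by cell class (ent., enterocyte) and library, with bars from 0 and lines for the 95% exact binomial interval. Mature enterocytes are highest in each library (76.5%, 63.2% and 72.0%) and Paneth cells lowest.

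Within mature enterocytes the genes tended to be found in the same cells. Ifit1 was found in 54.9% of AOS 0 cells with Isg15 and 46.2% of those without it, in 44.2% and 33.6% of B + A 0 cells, and in 61.9% and 44.5% of B + A 10 cells. Over pairs of the 7 genes in the 3 libraries, each pair counted once, 53 of 63 were found together more often than apart in this sense. Pairs of Ifitm3 with the 7 genes did so too, in 18 of 21, so the tendency was not particular to the 7. In early enterocytes 54 of 61 pairs of the 7 genes did, in goblet cells 44 of 50 and in stem cells 23 of 46. Pairs with Ifitm3 did in 15 of 21, 7 of 21 and 14 of 21 there. These cells share clusters and libraries, and the shares are a description. The variance of Isg15 over its mean was 1.958, 1.36 and 1.90 in thinned mature enterocytes, and that of Ifit1 was 2.04, 1.75 and 1.78. Irf7 stayed at 1.04, 1.08 and 1.01, where 1 is the value of pure counting noise, and Ifitm3 was most uneven in goblet cells, at 2.16, 1.87 and 2.05.

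The genes most like each of the 8 were sought over 24 sums, 8 classes in 3 libraries, among 9296 genes with at least 300 UMIs. Likeness was Pearson's r of log2(level + 0.1), and the sums share classes and libraries. Isg15 was most like Ifi47, an interferon-induced GTPase (r = 0.986), Jak2 (0.982) and Oasl2 (0.981). Ifit1 was most like Ifit1bl1 (0.986), Oasl1 (0.983) and Irgm2 (0.982), Irf7 like Zbp1 (0.989), Cd82 (0.986) and Prkcd (0.978), and Oasl2 like Trim30a (0.986), Jak2 (0.983) and Isg15 (0.981). Most of these neighbours are interferon genes themselves. The neighbours of the others mostly were not: Ifit3 was most like Ppargc1a (0.973), Gnpda1 (0.968) and Chka (0.967), Ifit2 like Slc9a2 (0.943), Fahd1 (0.932) and Ier5 (0.921), and Bst2 like Ftl1 (0.963), Tbrg1 (0.961) and Stard3 (0.960). Ifitm3 was most like Smoc2, a stem cell marker (0.976), Fads1 (0.974) and Myb (0.974), and its r with Isg15 was -0.422.

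Genes of the wider interferon pathway were mostly higher in mature enterocytes than in stem cells, but not in every list. Of 55 other antiviral genes 48 were, of 23 genes such as the GTPases that interferon gamma induces 17, of 16 sensors and adaptors 13, of 11 negative regulators 6, of 5 other regulatory factors 4 and of 2 Ifitm relatives 0. Lgals9, a galectin, was nearly flat at 8.08 and 6.79 UMIs per 10000 in mature enterocytes and stem cells, as was Psmb8, an immunoproteasome subunit, at 5.90 and 6.26, and Rnaseh2c ran the other way at 0.304 and 2.15. Of 12 genes of the interferons themselves 2 were in the table. Ifng had 14 UMIs, all in B + A 0, of which 10 were in T cells, and Ifnk had 21. Of the 6 receptor chains, 6 were higher in mature enterocytes than in stem cells, with Ifngr2, a chain of the interferon gamma receptor, at 1.71 and 0.601 UMIs per 10000 and Il10rb, shared by the type III receptor, at 0.711 and 0.211. None of these 6 genes, of 5 other interferon regulatory factors and of 16 sensors and adaptors passed 1.5-fold by standardised level in any of the 3 comparisons. Usp18, which removes Isg15 from proteins, was 7.64-fold higher in mature enterocytes than in stem cells, at 1.73, 0.871 and 1.39 in mature enterocytes of the 3 libraries.

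Over all 9 lists, 3 of 117 genes were at least 1.5-fold higher and 2 lower in B + A 0 over AOS 0, with a median of 0.873. In B + A 10 over B + A 0 the counts were 3 and 1 of 114 with a median of 1.09, and in B + A 10 over AOS 0 they were 5 and 1 of 115 with a median of 0.979. The medians over all genes were 0.952, 0.993 and 0.943. Of all genes 1.24% were 1.5-fold higher and 1.71% lower in the first comparison, 1.07% and 0.879% in the second and 2.61% and 3.11% in the third. Among 54 other antiviral genes the median was 0.837 in the first comparison, and among 52 it was 1.17 in the second.

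Ifi27l2b, a small membrane protein gene induced by interferon, had the largest ratio of the listed genes in the second comparison. Its standardised level was 9.06, 4.36 and 20.2 UMIs per 10000 in the 3 libraries, with ratios of 0.482 (0.470 to 0.494) and 4.63 (4.52 to 4.74) in the first and second comparisons. The second ratio was close in every class, from 3.79 to 5.30, ileal enterocytes included. Its neighbour Ifi27l2a ran the other way, at 7.30, 9.25 and 6.92. Ifit1bl1 followed Ifit1, at 10.9, 6.60 and 9.03 in mature enterocytes, 4.82, 4.77 and 3.78 in ileal enterocytes and 1.41, 1.18 and 2.40 in goblet cells.

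The other listed genes that passed 1.5-fold were named after their values were seen. Rsad2 (viperin) had 0.608 in B + A 0 and 1.21 in B + A 10, a ratio of 1.98 (1.85 to 2.13), and Sp100 had 0.616 and 0.946, a ratio of 1.54 (1.43 to 1.65). Oas1a and Oas1g were 1.69-fold and 1.70-fold higher in B + A 0 than in AOS 0 and level with B + A 0 in B + A 10, at 1.01 and 1.03. Mndal, at 318 UMIs, was 2.60-fold higher in B + A 0 over AOS 0 and had a ratio of 0.616 in the second comparison. Its level was highest in T cells, and the part of T cell RNA was not tested. Gbp3 had 0.653 in the first comparison and Socs1 0.643 in the third. Oas1a and Oas1g are close copies, as are Ifi27l2a and Ifi27l2b, and the split of their reads is uncertain.

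**Figure D5:**
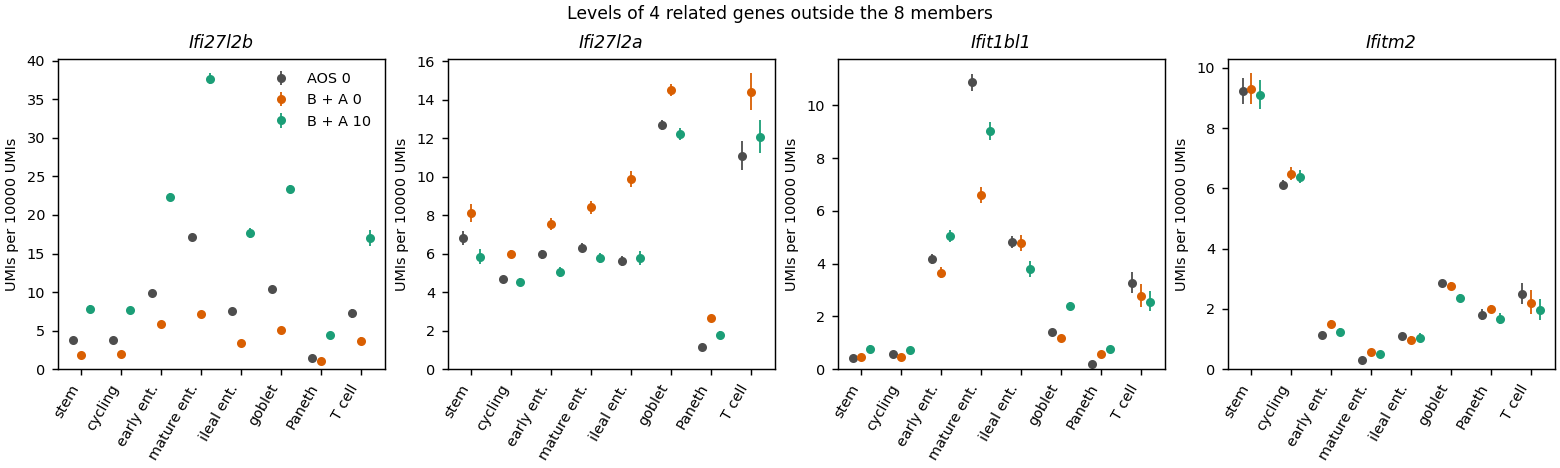
Levels of Ifi27l2b, Ifi27l2a, Ifit1bl1 and Ifitm2, in UMIs per 10000 UMIs, in 8 cell classes (ent., enterocyte) and 3 libraries, with each panel on its own linear axis and bars for the 95% counting interval. Ifi27l2b is highest in B + A 10 in each class, Ifit1bl1 peaks in mature enterocytes as Ifit1 does, and Ifitm2 peaks in stem cells as Ifitm3 does.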

How the data were processed

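Single cells of the small intestine were measured in 3 libraries, 1 per group. The authors aligned reads with Cell Ranger 2.2.0 to mm10, dropped cells with fewer than 200 genes and genes in fewer than 3 cells, and used Seurat to normalize. Each deposited value is a natural log, taken of UMIs per 10000 in that cell after 1 was added. These were turned back into whole UMIs, all within 0.01 of whole, giving 35258551, 26044381 and 23003083 UMIs for the 3 libraries (AOS 0 first, B + A 0 second, B + A 10 last). Groups came from the treatment field of the labels.

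Libraries were joined in Seurat 5.3.0 (R 4.3.3) on 2000 variable genes and 20 dimensions and clustered with 20 neighbours at resolution 0.8, which gave 21 clusters. The members and 9 interferon lists (143 genes) were left out of the clustering genes. A cluster was named where at least 2 of its 10 and at least 3 of its 20 leading genes were markers of the class. This threshold was chosen with the clusters known. Doublets were kept. Standardised levels weight 11 classes by their share of all cells. Ratios have exact binomial intervals, or approximate ones for standardised levels, at 95%. No test was run, for want of replicates. Calculations used scanpy 1.11.5, pandas 2.3.3, numpy 2.4.6 and scipy 1.17.1 under Python 3.11.15, and matplotlib 3.10.9 for plots. The calculation was tested on simulated data.

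The named genes are all 8 members, up to 4 genes with the highest level of each wider list, and the 3 genes most like each member. The list of signalling genes downstream of the receptors is not reported here. Members, lists and comparisons were chosen with earlier results of these data known. Marker lists of the study hold Ifit1, Isg15, Oasl2, Irf7, Ifit3 and Ifitm3, so that their pattern across classes is not independent of it. Gene coordinates are from GENCODE on GRCm38. Alternatives were other clusterings, doublets left out, per-cell means, another scaling, cells with at least 500 genes, thinned cells, cells assigned by marker scores, no class weights and other folds.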

Additional observations from a re-analysis of the deposited data

Results flagged for a closer look

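The same comparison went opposite ways in mature and ileal enterocytes for several genes, with counting intervals on opposite sides of 1. With 1 library per group the difference between the classes was not tested. Among the leading genes of 1 of the 2 ileal clusters were early enterocyte markers, so the classes may also differ in maturity. In B + A 10 over B + A 0 the ratios in mature and ileal enterocytes were 1.43 and 0.656 for Isg15, 1.63 and 0.856 for Ifit1, 1.35 and 0.390 for Ifit2, and 1.80 and 0.702 for Ifit3. They were 1.09 and 0.843 for Irf7 and 1.24 and 0.851 for Oasl2. In B + A 0 over AOS 0 the ratios of Ifit1 were 0.653 in mature and 1.10 in ileal enterocytes. Mature enterocyte markers in ileal enterocytes stood at 14.6%, 17.0% and 18.8% of their mature enterocyte level in the 3 libraries (AOS 0 first, B + A 0 second, B + A 10 last), and T cell markers in ileal enterocytes at a summed 1.85, 6.83 and 9.14 UMIs per 10000. The part of neither in the result was tested.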

How the results depend on the processing

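Of the 24 standardised ratios, 23 stayed on the same side of 1 in all 10 alternatives, and Ifitm3 in B + A 10 over B + A 0, near 1.00, did not. The number of genes highest in mature enterocytes was 6 in every alternative. In B + A 0 over AOS 0 the 2 genes past 1.5-fold were 5 at a line of 25% and 0 past 2-fold. Without class weights Isg15 joined the 2, just past the line at 0.6663. In B + A 10 over B + A 0 there were 0, but 1 at resolution 1.5 and 1 by per-cell means (Ifit1 in both), 2 without class weights and 2 at a line of 25% (Ifit1 and Ifit3 in both). In B + A 10 over AOS 0 the 1 gene became 0 in thinned cells and past 2-fold and 2 at a line of 25%. In ileal enterocytes B + A 0 over AOS 0 gave 1 gene in thinned cells, Ifit3, with a ratio of 0.516, and in B + A 10 over B + A 0 there Ifit3 turned to 1.42 and Ifitm3 to 1.07. At 2000 UMIs per cell, 93.6%, 87.5% and 94.1% of mature enterocytes of the 3 libraries (AOS 0 first, B + A 0 second, B + A 10 last) had at least 2 of 7 genes, and at least 3 were found in 47.0%, 34.8% and 40.9% at 1000 UMIs. With all listed genes that had a UMI in both libraries, 13, 14 and 11 genes of the wider lists passed 1.5-fold, against 5, 4 and 6. The causes were not tested.

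No paired analysis was possible because each group had 1 library, and no library was left out of a group. Depth per cell was lowest in B + A 10, with a median of 3505 UMIs, and Ifit2 in its ileal enterocytes rested on 46 UMIs. In mature enterocytes leaving out the 78 cells led by Clca4a and Ada, an alternative chosen after seeing the data, took the count of B + A 0 over AOS 0 from 4 to 3.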

Other observations

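Tuft-like cells, chemosensory cells of the epithelium, were few, with 10, 6 and 13 cells in the 3 libraries (AOS 0 first, B + A 0 second, B + A 10 last). Their Isg15 level was 12.02, 13.2 and 8.02 UMIs per 10000 from 63, 43 and 30 UMIs, and their Irf7 level was 4.96, 7.38 and 4.81. Enteroendocrine-like cells, which secrete hormones, had Isg15 at 1.70, 1.68 and 2.23 in 65, 33 and 57 cells, and Ifitm3 at 9.61, 15.7 and 7.24.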
